A study of Mus musculus with 2 samples.

Results

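The mature products of the mir-150 hairpin, miR-150-5p and miR-150-3p, were taken from 2 small RNA libraries of mouse helper T cells by their names in the deposited tables. Both were listed in both libraries, so the members are 2 of 1125 miRNAs listed in at least 1 library. The libraries, 1 per group, came from naive CD4+CD62L+ splenic T cells of female C57BL/6 mice, cultured in medium with 10% serum as control Th0 cells or under conditions for Th17 cells, which make interleukin-17. Th0 medium held anti-CD28 (1 µg/ml) and neutralising antibodies to IL-4 and IFN-γ (5 µg/ml each). Th17 medium had these and, in addition, antibodies to IL-2 and IL-12 (5 µg/ml each), TGF-β (2 ng/ml), IL-6 (40 ng/ml), IL-1β (10 ng/ml) and IL-23 (40 ng/ml) over a culture of 6 to 7 days. The Th0 culture time is not stated in the sources used here, so time and medium cannot be told apart in any ratio. The series describes triplicates, while each table analysed here has 1 column of reads, and how many mice or cultures it represents is not stated there.

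A miRNA hairpin is cut by Drosha and then Dicer into a short duplex, of which an Argonaute protein usually keeps one strand, the guide arm, while the other, the passenger arm, is mostly degraded. miR-150-5p is the guide arm of mir-150. It is low in lymphoid progenitors, accumulates in mature resting B and T cells, and is known to fall when naive T cells are activated. Its best known target is Myb, a transcription factor of immature and dividing haematopoietic cells, and forced early expression of miR-150 blocks B cell development. Neither Myb mRNA nor Myb protein was measured in these small RNA libraries.

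In mm10 (GRCm38) the Mir150 gene model of GENCODE M21 lies on chromosome 7 from 45121757 to 45121821, plus strand, a span of 65 bases. No other gene model overlaps it. The nearest on its strand is the noncoding Gm45552, which starts 96 bases downstream. RefSeq's mature sequence table (GRCm38.p6) gave 1 of the 2 members, miR-150-3p at chr7:45121798-45121819. It is the passenger arm, whose level moved against that of the guide arm. Capitals mark the seed, bases 2 to 8, which pairs with targets.
miR-150-3p: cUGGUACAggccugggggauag
No other mature mouse miRNA in that table carries this seed. The arm has 14 G or C bases among its 22 (63.6%), against a median of 50% over the 935 listed miRNAs with a sequence, of which 107 are richer. It holds a run of 5 G, which 19 of the 935 (2.03%) match or exceed.

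miR-150-5p was an abundant miRNA in both cultures and was modestly higher in Th17. It had 82830 reads in the Th0 library and 147086 in the Th17 library. Scaled by the listed reads of each library, 8358010 and 11975371, this was 9910.3 CPM, reads per 1000000 listed reads (95% Poisson interval 9843 to 9978), in Th0 and 12282 CPM (12219.7 to 12345) in Th17. The Th17 level was 1.24-fold the Th0 level (1.23 to 1.25), a log2 ratio of 0.31. The intervals of the 2 levels do not overlap, but they cover counting error within these libraries only, since reads from PCR without molecular identifiers are not independent molecules. A single library per group allows no test of the conditions and no p-value, and the spread between cultures is not known. In bulk RNA, fewer cells holding a miRNA and less of it per cell cannot be told apart.

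miR-150-3p had far fewer reads than its guide arm, and its level went the other way. It had 643 reads in Th0 and 703 in Th17, or 76.9 CPM (71.1 to 83.1) and 58.7 CPM (54.4 to 63.2). Its Th17 level was 1.31-fold lower (1.18 to 1.46), a log2 ratio of -0.39 with an interval of -0.55 to -0.23. Its raw reads were more numerous in Th17, in a library with 1.43 times as many listed reads. The guide arm gained 64256 reads between the libraries and the passenger arm 60. Summed over both arms, the hairpin stood at 9987 and 12341 CPM, a Th17 level 1.24-fold the Th0 level (1.23 to 1.25), a sum made almost wholly of the guide arm.

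**Figure D1:**
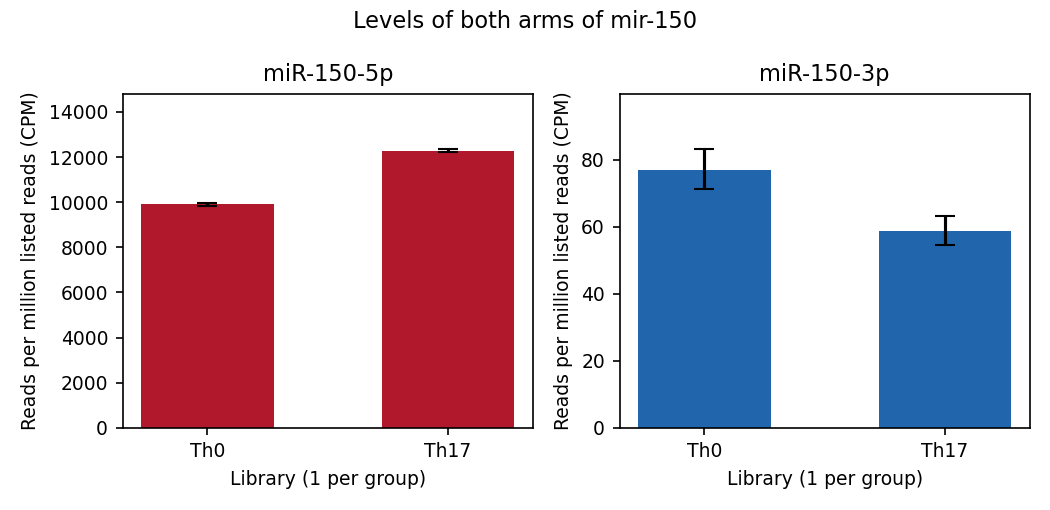
Levels in CPM of miR-150-5p (left) and miR-150-3p (right) in the Th0 and Th17 libraries, 1 library per bar, on separate linear axes that start at 0. Error bars are 95% Poisson intervals of counting error. The 5p bar is higher in Th17 (12282 against 9910.3 CPM) and the 3p bar is lower (58.7 against 76.9 CPM).

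Neither ratio was large for this pair of libraries. A mean of 10 CPM or more was reached by 298 miRNAs. With an interval excluding 1, 6.71% of them were higher in Th17 by 2-fold or more and 13.1% lower by as much, and neither arm of mir-150 was among them. An interval above 1, as for miR-150-5p, was found for 40.6% of the 298, and an interval below 1, as for miR-150-3p, for 47.7%, so each direction taken alone was common. The log2 ratio of miR-150-5p was exceeded by 93 of the 298 miRNAs. That of miR-150-3p was lower than in 196 of them and higher than in 101. The middle of the distribution ran from -0.61 to 0.38 (quartiles) around a median of -0.08, a range that holds both arms. Of the 72 miRNAs whose mean reached 1000 CPM, 18 had a higher log2 ratio than miR-150-5p and 53 a lower one.

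**Figure D2:**
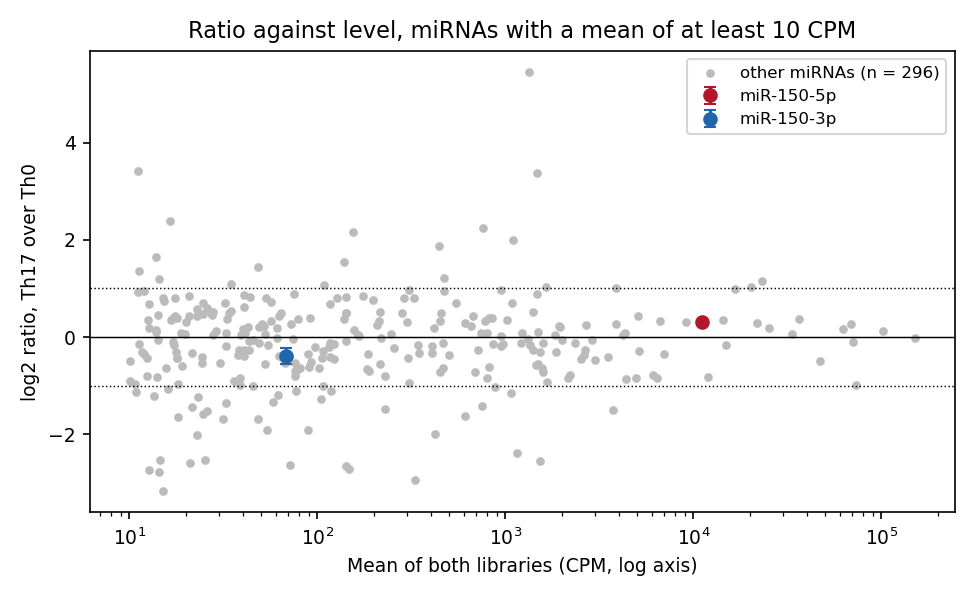
Each point is a miRNA with a mean of at least 10 CPM, placed by its mean over both libraries (log axis) and its log2 ratio of Th17 over Th0; dotted lines mark 2-fold, and the bars on the mir-150 arms are 95% counting intervals. miR-150-5p (0.31) and miR-150-3p (-0.39) both lie between the dotted lines, on opposite sides of 0.

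In order of level, miR-150-5p was the 19th most abundant miRNA of the Th0 library and the 18th of the Th17 library. In both it came directly after let-7a-5p, a member of the let-7 family that restrains growth genes. In Th0 the neighbour above was at 10084 CPM (10016 to 10152) and the neighbour below, miR-186-5p, at 8259 CPM (8198 to 8321). In Th17 let-7a-5p was at 12612 CPM (12549 to 12676) and let-7g-5p followed at 10074 CPM (10017 to 10131). None of these counting intervals overlaps that of miR-150-5p, although the step to let-7a-5p was small in both libraries. miR-150-3p was the 173rd in Th0, between miR-30c-1-3p (79.3 CPM) and miR-191-3p (75.02 CPM). It was the 178th in Th17, between miR-221-5p (58.9 CPM) and miR-3535 (57.5 CPM). These neighbours could not be separated from miR-150-3p, since their intervals overlap.

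The miRNAs with the most similar levels were found by the distance between log2 CPM values over the 2 libraries. let-7a-5p was the nearest to miR-150-5p (distance 0.046), with a fold of 1.25 (1.24 to 1.26). let-7g-5p (distance 0.41) was 1.24-fold higher in Th17 (1.23 to 1.25), and miR-30d-5p (distance 0.53) was 1.28-fold higher (1.27 to 1.29). The remaining neighbours, miR-25-3p and miR-93-5p, were near in level only, with log2 ratios of -0.17 and -0.83. For miR-150-3p the nearest were miR-425-3p (distance 0.074), miR-350-3p (0.084) and miR-467c-5p (0.11), with log2 ratios of -0.39, -0.41 and -0.54. A likeness over 2 libraries rests on 2 values per miRNA and describes these levels only, and how reads were divided among near-identical let-7 members is not stated in the sources.

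The reads of mir-150 were divided very unequally between its arms in both cultures, and more so in Th17. How well the library chemistry recovers each arm was not measured, so the shares below are of reads and not of strand use. The 5p share of the hairpin's reads was 99.23% of 83473 reads in Th0 (Clopper-Pearson interval 99.17 to 99.29%). In Th17 it was 99.52% of 147789 reads (99.49 to 99.56%). Put as the passenger arm's share, 0.770% in Th0 (0.712 to 0.832%) became 0.476% in Th17 (0.441 to 0.512%). There were 129 guide reads for each passenger read in Th0 and 209 in Th17, a 1.62-fold change (exact conditional interval 1.46 to 1.81). This ratio is taken within each library, so no choice of library scaling can alter it.

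In percentage points the shift was 0.29, below the median absolute shift of 0.46 over the 178 hairpins that had 100 or more reads in both libraries. Of the 178, 99 shifted by more than mir-150 in either direction. A shift of 10 points or more was seen in 2.25% of them, and mir-150 was not among these. In Th0, 39 of the 178 had a higher 5p share than mir-150, and in Th17 28 did. The nearest hairpins by 5p share over both libraries were mir-1198 (99.31%) below and mir-93 (99.53%) above. The 5p share of mir-93 went from 99.62% in Th0 to 99.40% in Th17, and that of mir-1198 from 99.25% to 99.35%. A share near its ceiling can move little in points, so the arms were also compared as ratios.

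On the ratio scale mir-150 was among the hairpins whose arms differed most in favour of the major arm. For 80 hairpins with at least 100 reads of each arm in each library, the log2 ratio of the minor arm was subtracted from that of the major arm. The value for mir-150 was 0.70 (0.54 to 0.86), against a median of -0.04 and quartiles of -0.34 and 0.28. It was exceeded by 5 hairpins: mir-671, mir-3074, mir-142a, mir-181b and mir-140, named after their values were seen. The interval of mir-150 holds the values of mir-181b (0.84) and mir-140 (0.72) above it. It also holds lower ones, such as mir-26b (0.68) and mir-98 (0.67), so the rank is one of point values only. The mir-3074 hairpins lie across those of mir-24 on the opposite strand, and both mir-3074 and mir-181b join a pair of precursors. In either direction, 15 of the 80 had arms farther apart than mir-150. Arms that differed in direction, with both intervals excluding 1, were found in 16.2% of the 80, and in 10.0% it was the major arm that was higher in Th17 and the minor arm lower. mir-150 was 1 of these 8 hairpins, with mir-142a, mir-26b, mir-98, let-7d, mir-3074, mir-140 and mir-671. Among the 27 hairpins whose minor arm held under 2% of reads, the median was 0.03, and 2 hairpins exceeded mir-150. mir-142a, the blood-lineage hairpin, showed the same arrangement on more reads: its 5p arm had a log2 ratio of 0.18 and its 3p arm of -0.93.

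**Figure D3:**
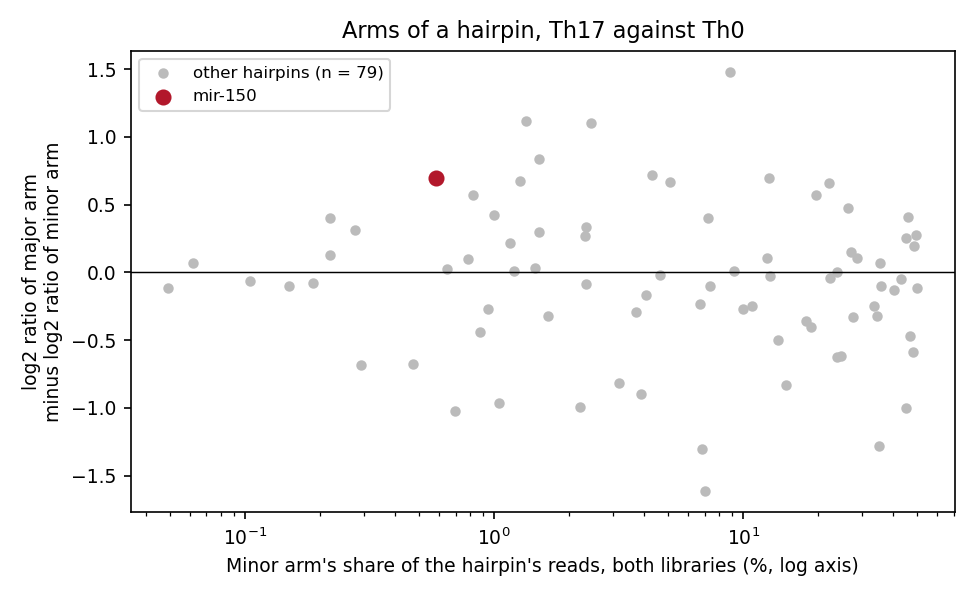
Each point is 1 of 80 hairpins with at least 100 reads of each arm in each library, placed by the minor arm's share of its reads (log axis, percent) and by the log2 ratio (Th17 over Th0) of the major arm minus that of the minor arm. By point value mir-150, at a minor share of 0.582%, lies at 0.70, above all but 5 hairpins.

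miR-150-5p was next set beside 14 other miRNAs abundant in naive or resting mature lymphocytes. The interval was above 1 for 9 of them and below 1 for 5, beside 40.6% and 47.7% over the 298 miRNAs with a mean of 10 CPM or more. Their median log2 ratio was 0.25, against -0.08 over the 298. A higher ratio than that of miR-150-5p was found in 6 of the 14, and in 31.3% of the 297 other miRNAs. Most of the 14 belong to the let-7, miR-29 and miR-30 families, so counts over this list do not rest on independent members. The list did not move as a block. miR-29a-3p, which limits interferon-γ in T cells, was 2.04-fold higher in Th17 (2.03 to 2.06) and miR-181a-5p, which lowers the threshold of T cell receptor signalling, 1.98-fold higher (1.97 to 2.00). miR-142a-3p was 1.90-fold lower (1.86 to 1.95). It was the minor arm of its hairpin here, and the major arm, miR-142a-5p, which is not on this list, was 1.13-fold higher. miR-342-3p, encoded in an intron of Evl and abundant with miR-150 in resting lymphocytes, was 1.80-fold lower (1.77 to 1.82). With a scaling total that omits the 10 most abundant miRNAs of either library, let-7f-5p moved from 0.06 to -0.00030 on the log2 scale.

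Of 15 activation-induced miRNAs, 5 had intervals above 1 and 10 below, beside 40.6% and 47.7% over the 298. A change of 2-fold or more was seen upward in 3 and downward in 5, beside 6.71% and 13.1%. All of those 5 are products of the Mir17 cluster, and both arms of mir-155 are among the 3. Counts over this list therefore do not rest on independent members. Their median log2 ratio was -0.16, against -0.08 over the 298. miR-155-3p was 4.51-fold higher in Th17 (4.09 to 4.98), while miR-19a-3p, miR-19b-3p and miR-18a-5p, of the Mir17 cluster that drives lymphocyte proliferation (miR-19b-3p has a further precursor in the Mir106a cluster), were 6.53-fold (5.91 to 7.23), 5.88-fold (5.71 to 6.06) and 2.79-fold lower (2.62 to 2.98). Under DESeq2 scaling miR-21a-5p and miR-210-3p passed from below 0 to above it, at 0.05 and 0.01 on the log2 scale.

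Reads of miR-150-5p per read of another miRNA give the same comparison free of scaling. Against miR-155-5p, a product of the activation-induced Mir155 gene, there were 0.691 miR-150-5p reads per read in Th0 and 0.387 in Th17, 1.79-fold fewer (1.77 to 1.80). Against miR-21a-5p, also induced by activation, the ratio was 1.26-fold higher in Th17 (1.25 to 1.27), and against miR-17-5p 2.75-fold higher (2.67 to 2.84). Set against each of the other 297 miRNAs with a mean of 10 CPM or more, miR-150-5p was higher in Th17 for 63.3% and lower for 21.5%, with intervals excluding 1. Against the activation-induced miRNAs it was higher for 11 of 15 and lower for 4. Against the resting-lymphocyte miRNAs it was higher for 8 of 14 and lower for 4, and the interval held 1 for 2, let-7a-5p and let-7g-5p. These counts are near the shares over all miRNAs and mark out neither list. Against miR-342-3p it went from 1.56 to 3.47 reads per read, 2.23-fold higher (2.19 to 2.26), and against miR-181a-5p from 0.888 to 0.556, 1.60-fold lower (1.58 to 1.62).

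Other miRNAs reported to act on Myb form 4 seed groups, printed here because the seed shows which of them could share target sites with each other. None has the seed of the passenger arm miR-150-3p. The seed of the guide arm miR-150-5p was not compared, since its sequence was not among the RefSeq entries used, so sharing of sites with it is not shown. Capitals again mark bases 2 to 8.
miR-15a-5p: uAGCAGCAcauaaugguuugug
miR-16-5p: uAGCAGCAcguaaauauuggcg
miR-200b-3p: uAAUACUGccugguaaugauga
miR-200c-3p: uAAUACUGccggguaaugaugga
miR-429-3p: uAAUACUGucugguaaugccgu
miR-34a-5p: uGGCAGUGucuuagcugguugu
miR-155-5p: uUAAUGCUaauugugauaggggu
The interval was above 1 for 2 of these 7 miRNAs and below 1 for 5, beside 40.6% and 47.7% over the 298, and the median log2 ratio was -0.49, against -0.08. miR-16-5p, more abundant than miR-150-5p, was 1.40-fold lower in Th17 (1.40 to 1.41), and miR-15a-5p, with the same seed, 1.56-fold lower (1.52 to 1.59). The epithelial miRNAs with the AAUACUG seed split: the Th17 level of miR-200c-3p was 1.37-fold that of Th0 (1.15 to 1.64), while miR-200b-3p stood at 3.79-fold less (3.39 to 4.23) and miR-429-3p at 1.98-fold less (1.71 to 2.30). miR-155-5p was 2.21-fold higher (2.20 to 2.23), and it is also an activation-induced miRNA. The p53-responsive miR-34a-5p was 1.09-fold lower (1.05 to 1.13), an interval that holds 1 under DESeq2 scaling. Their sums were close, 72299.5 CPM for Th0 and 73009 CPM for Th17, with miR-155-5p and miR-16-5p changing in opposite directions.

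**Figure D4:**
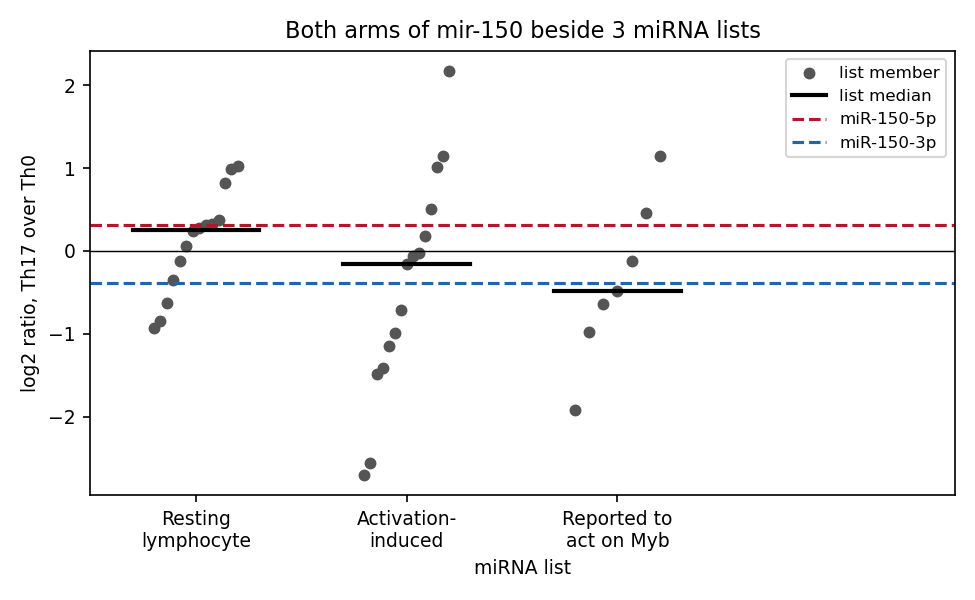
log2 ratio of Th17 over Th0 for each member of 3 miRNA lists (grey points, in order of value, with the list median as a black bar) beside the values of miR-150-5p (red dashed line, 0.31) and miR-150-3p (blue dashed line, -0.39). The list medians are 0.25, -0.16 and -0.49, and every list has members on both sides of 0.

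The 5 miRNAs listed as present in T cells include miR-150-5p itself, whose presence is no separate finding. All were found, from 2194 CPM (miR-142a-3p) to 58347 CPM (miR-142a-5p) in Th0. In Th17 the same arms were at 1153 and 65898 CPM. None of the 5 is specific to T cells, so they do not test the T cell label. Of 14 markers of other cells, 13 were listed and 4 reached a mean of 10 CPM: miR-126a-3p, miR-126a-5p, miR-200c-3p and miR-486a-5p, the last uncertain as a miRNA separate from miR-486b-5p. The summed level of the markers was 395 CPM for Th0 and 299 CPM for Th17, or 3.99% and 2.44% of the level of miR-150-5p. Of this sum, miR-486a-5p made up 163 and 167 CPM. The sum was above the level of miR-150-3p, 76.9 CPM in Th0 and 58.7 CPM in Th17. Such percentages compare read levels and do not measure the share of other cells. Of the 13, 5 had 0 reads in Th0 and at most 2 in Th17, and the myeloid miR-223-3p was at 3.35 and 6.76 CPM. Both arms of the endothelial mir-126a were lower in Th17, miR-126a-3p by 3.19-fold (2.67 to 3.83) and miR-126a-5p by 2.02-fold (1.85 to 2.21). Their part in the mir-150 values was not tested. miR-150-5p is itself abundant in B cells and natural killer cells, and the markers used here do not cover these cells.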

How the data were processed

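Small RNA was profiled in 1 Th0 and 1 Th17 library with TruSeq small RNA chemistry, per the labels' protocols. The authors deposited whole-number read counts per mature miRNA and TPM values, which are those counts scaled to a library total larger than the listed reads. Per the submitters' processing notes, the build is mm10. No source used here names the aligner, the miRNA annotation release or the treatment of reads matching several miRNAs.

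A miRNA missing from 1 table was taken as 0 reads. Counts were divided by the listed reads of each library (986 miRNAs with 8358010 reads in Th0, 1012 with 11975371 in Th17) to give CPM. Ratios have exact 95% intervals conditional on the sum of both counts, shares have Clopper-Pearson intervals, and reads per read of another miRNA have normal intervals on the log scale. All cover counting error only, with each read taken as independent. Precursors sharing a mature miRNA were joined as 1 hairpin. TMM (edgeR 4.0.16) and DESeq2 1.42.0 size factors, the authors' totals and a total without the 10 most abundant miRNAs of either library were alternatives. The ratio procedure was run on simulated counts that held counting error only. That run checks the calculation and says nothing on PCR duplicates or the spread between cultures. The members and lists were chosen with earlier results of these data known. Named miRNAs are the members, their 5 and 3 nearest in level, rank neighbours, nearest hairpins in 5p share, seed sharers, up to 4 list members of largest absolute log2 ratio, miR-342-3p and miR-181a-5p; the remaining members of the Myb list, list members whose direction changed with the scaling, miR-17-5p, miR-142a-5p and single markers were named after their values were seen.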

Additional observations from a re-analysis of the deposited data

How the results depend on the processing

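The directions of both arms and of their sum were kept under all 4 scalings tried. The log2 ratio of miR-150-5p was 0.39 with DESeq2 size factors and 0.25 without the 10 most abundant miRNAs of either library, and that of the summed arms 0.38 and 0.25, outside their narrow counting intervals at the listed-read scaling. miR-150-3p ran from -0.45 to -0.31, inside its wider interval. The 5p shares from the deposited TPM values are equal by construction, since these are scaled counts, and are no check. With no filter on low counts 69 miRNAs were at least 2-fold higher and 100 at least 2-fold lower, and with a mean of at least 100 CPM 13 and 15, in place of 20 and 39. Hairpins whose 5p share shifted numbered 2 at a minimum of 1000 reads and 17 at 5 percentage points, in place of 4. The 8 hairpins with the major arm higher and the minor arm lower became 7 to 10 under the scalings, alternatives chosen after seeing the data. No paired analysis was possible because each group has 1 library. Of the 2 arms, depth limits miR-150-3p more: its 643 and 703 reads leave an interval of 1.18 to 1.46 on its fold.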
